A study of Danio rerio with 24 samples.

Results

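The mitochondrial ribosomal protein genes were taken as all genes whose symbol in the deposited tables was mrpl (large subunit) or mrps (small subunit) followed by a number. Of the 25432 genes in each table, 74 had such a symbol, and all 74 reached 1 TPM (a share of all transcripts, scaled for transcript length) in at least 3 of the 24 libraries, so none was lost to this minimum. The set held 46 mrpl and 28 mrps genes. A pair of further entries, MRPL49 and MRPS12, are written in capitals and fell outside the rule; they averaged 47.3 and 65.2 TPM over the 24 libraries.

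The mitochondrial ribosome (mitoribosome) translates the few respiratory chain and ATP synthase subunits that are encoded in mitochondrial DNA. Its ribosomal RNA is transcribed inside the organelle, whereas its proteins are encoded in the nucleus, made in the cytosol and imported, so building it draws on both genomes. The small subunit binds and decodes the mRNA, and the large subunit forms the peptide bond and carries the exit tunnel; many of the proteins have bacterial homologues and the others occur only in mitochondria.

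RNA was sequenced from whole zebrafish embryos 4 days post fertilization in 4 transgenic lines made to test how efficient and how specific an inducible CRISPR system is. In each line, 3TG embryos carried the CRISPR-Q components together with guide RNA, and 2TG siblings carried the same components without a guide. The guides targeted smn1, or tardbp together with tardbpl, for RNA knockdown (CRISPR-QKD), and lin28a or sox9b for transcriptional activation (CRISPR-Qa). All 8 groups, controls included, were heated for 1 h on days 2 and 3, and the heat turns on the driver QFvpr from the hsp70l promoter. Each group has 3 libraries, and since the labels do not give the number of embryos per library or say whether replicates came from separate clutches, p-values measure only the spread between these libraries. Because whole embryos were sequenced, fewer cells of a type and less RNA per cell cannot be told apart.

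Only TPM were used, and depth is unknown. The listed TPM summed to 983631 to 990345 in 23 libraries and to 778190 in tardbp 3TG replicate 3, where 3 abundant genes took 34.3% of the nominal total, against 0.109% to 1.29% in the others. Defining markers of skeletal muscle, skin, neurons, liver, intestine, exocrine pancreas, photoreceptors and red blood cells were at 1 TPM or more in all 24 libraries. The smn1 transcript stood at 27.9, 24.6 and 26.4 TPM in the 2TG libraries of its line and at 13.03, 17.3 and 15.9 TPM in the 3TG libraries. The other targets also lay on the labelled side, with no overlap between 3TG and 2TG of their line. For tardbp and tardbpl, 29.1% of all genes in that table were likewise lower without overlap. The lin28a transcript had 0.31, 1.23 and 0.87 TPM in its 2TG libraries and 2.69, 8.41 and 3.16 TPM in 3TG. It reached 11.2 TPM in a guide-free library of the sox9b line.

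The 74 genes were expressed within a narrow range. The median gene averaged 37.4 TPM over the 24 libraries, and 59 of the 74 averaged between 20 and 60 TPM. Large subunit genes had a median of 39.0 TPM and small subunit genes 29.9 TPM. The 44 genes with bacterial homologues had a median of 38.6 TPM and the 29 mitochondria-specific ones 29.4 TPM. Summed over the 74 genes, the module took 0.171% to 0.341% of the listed TPM of a library.

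Only 5 genes averaged above 60 TPM. The highest, mrps36 at 114 TPM, ranked first in 23 of the 24 libraries; despite its symbol its product is not a mitoribosome subunit but a component of the 2-oxoglutarate dehydrogenase complex, and the gene name table lists it as kgd4. It was followed by mrpl12 at 68.7 TPM, whose product forms the stalk that recruits translation factors and whose human counterpart also binds the mitochondrial RNA polymerase. The small subunit gene mrps24 averaged 66.7 TPM, and the large subunit genes mrpl53 and mrpl30 averaged 62.7 and 60.3 TPM.

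At the other end, 10 genes averaged under 20 TPM. The lowest was mrpl22, whose product lines the exit tunnel; it averaged 2.38 TPM and was the lowest of the 74 in 23 of 24 libraries. The small subunit gene mrps15 averaged 5.31 TPM. Next was mrpl58 at 8.32 TPM, which encodes a peptidyl-tRNA hydrolase built into the large subunit that releases stalled chains. The small subunit gene mrps25 averaged 9.68 TPM and mrpl9, a large subunit gene with a bacterial homologue, 10.5 TPM.

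**Figure D1:**
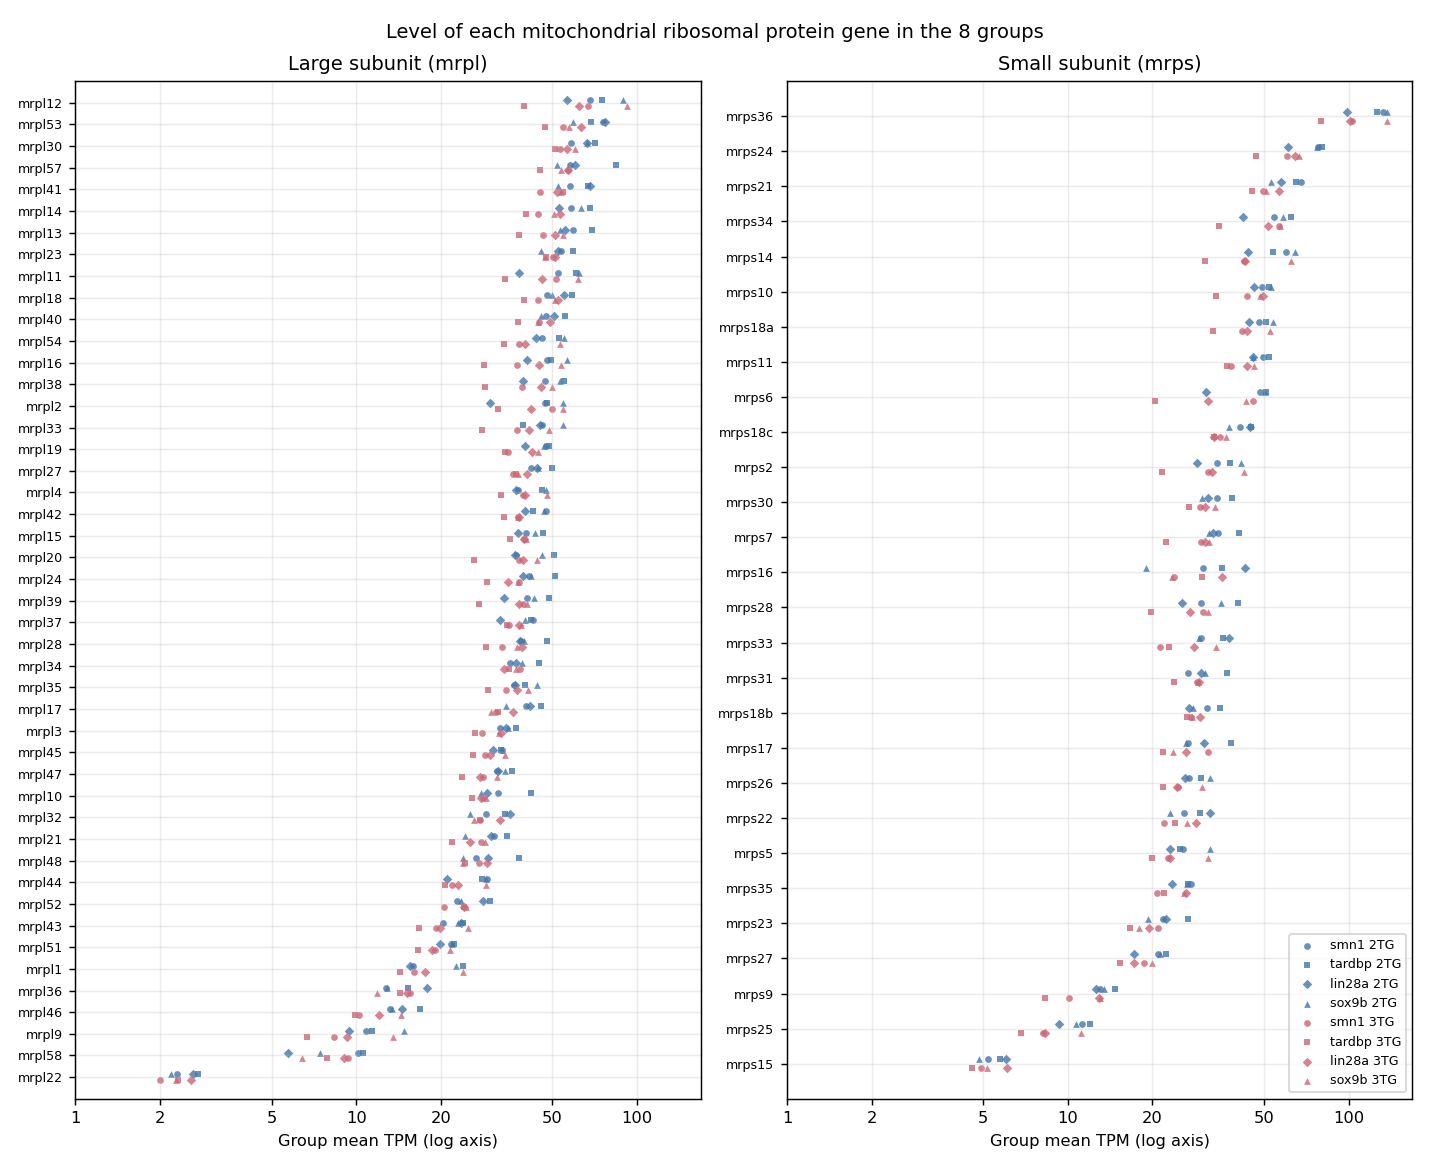
Mean TPM (log axis) of each gene in each of the 8 groups (n = 3 libraries each; blue 2TG, red 3TG; marker shape gives the line), for large subunit genes (left) and small subunit genes (right). Most genes lie between 20 and 60 TPM in every group, mrps36 and mrpl12 stand at the top, mrpl22 at the bottom, and the red squares of tardbp 3TG are usually the leftmost symbol.

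Between groups, the ratio of the highest to the lowest of a gene's 8 group means ran from 1.301 for mrpl23 to 2.50 for mrps6, with a median of 1.58. The 4 lines come in separate tables, so levels set across lines also carry any difference in processing between tables. The steadiest genes after mrpl23 were mrpl45, mrpl37, mrpl15 and mrps18b, and the most variable after mrps6 were mrpl12, mrps16, mrpl9 and mrps14. The highest of the 8 means was that of tardbp 2TG for 43 genes, and the lowest was that of tardbp 3TG for 56 genes. The same count over all genes was not made. The tardbp 3TG means include replicate 3, where 85.5% of all genes lay below every tardbp 2TG value, so these counts and ratios also carry that shift.

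The summed TPM of the 74 genes shows where single libraries stood apart. In the smn1 line the sum came to 2874, 2737 and 2946 TPM in 2TG against 2671, 2815 and 1995 TPM in 3TG. In the tardbp line it came to 3350, 3077 and 3144 TPM in 2TG against 2652, 2320 and 1328 TPM in 3TG. The tardbp groups did not overlap, whereas in the smn1 line only 3TG replicates 1 and 3 lay below every 2TG library, and replicate 3 lay far below. In the lin28a line the sum came to 2438, 2814 and 2777 TPM in 2TG against 2498, 2186 and 3151 TPM in 3TG, and in the sox9b line 2617, 2783 and 3372 TPM and 2613, 2973 and 2919 TPM. In both activation lines the groups overlapped, and the spread within a group was as wide as the distance between groups.

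**Figure D2:**
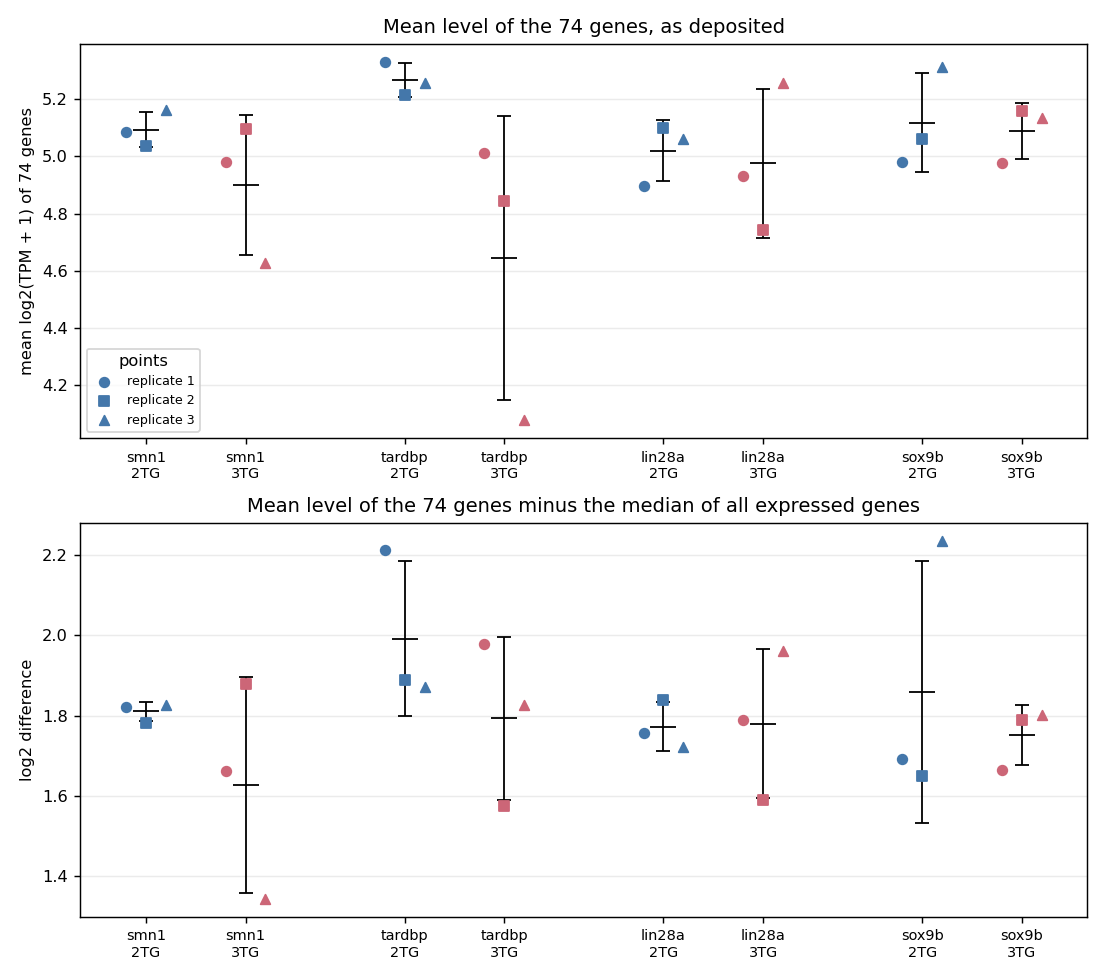
Mean log2(TPM + 1) of the 74 genes in each library (top) and the same minus the median of all expressed genes of that library (bottom); points are libraries, the long bar is the group mean and the whiskers are 1 SD (n = 3). As deposited, the 3 tardbp 3TG libraries lie below all 3 of tardbp 2TG; relative to the median gene these groups overlap, and smn1 3TG replicate 3 is the lowest of the 24 libraries.

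The mean of the 74 genes varied more between libraries than the difference between the large and small subunit means. Over the 24 libraries the mean log2(TPM + 1) of the 74 genes had an SD of 0.26, or 0.17 without tardbp 3TG replicate 3. This mean holds any shift that all genes of a library share. Relative to the median of all expressed genes in each library, its SD was 0.19. The large minus small subunit difference of the same log2(TPM + 1) values had an SD of 0.035 over the 24 libraries and 0.036 over 23. A shift common to a library nearly cancels in that difference, so its smaller SD follows in part from how it is computed. Whether other gene sets vary together as much was not tested. The median gene had an SD of 0.35 on this scale, which came to 0.21 after the module mean of each library was subtracted.

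By symbol, the balance of large to small subunit genes overlapped between 3TG and 2TG in every line. In the smn1 line the large minus small log2 difference came to 0.044, 0.054 and 0.072 in 2TG against 0.111, 0.062 and 0.133 in 3TG, a difference of group means of 0.05. In the tardbp line it came to 0.077, 0.131 and 0.105 in 2TG against 0.131, 0.205 and 0.133 in 3TG, also 0.05 apart. The group ranges overlapped in both lines. In the lin28a line the log2 difference came to 0.097, 0.084 and 0.104 in 2TG against 0.119, 0.136 and 0.103 in 3TG, 0.02 apart. In the sox9b line it came to 0.104, 0.113 and 0.126 in 2TG against 0.114, 0.046 and 0.102 in 3TG, with 3TG lower by a group mean change of -0.03. No group pair separated. The SD of this log2 difference over the 24 single libraries was 0.035, which is not the error of a difference between group means.

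The symbols do not always follow the subunit: in the human mitoribosome the products of MRPS30 and MRPS18A sit in the large subunit. With mrps30 and mrps18a moved to the large subunit and mrps36 left out, the large minus small log2 difference for smn1 was 0.17 without and 0.21 with the guide; it was 0.21 and 0.26 for tardbp, 0.19 and 0.22 for lin28a, and 0.23 and 0.21 for sox9b. The direction in each line was as by symbol. Taken as the difference of subunit medians in place of means, the change had the opposite sign in smn1, at -0.09. By position, all 3 values of smn1 3TG lay above those of 2TG, with 0.173 against 0.170 in the nearest pair.

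**Figure D3:**
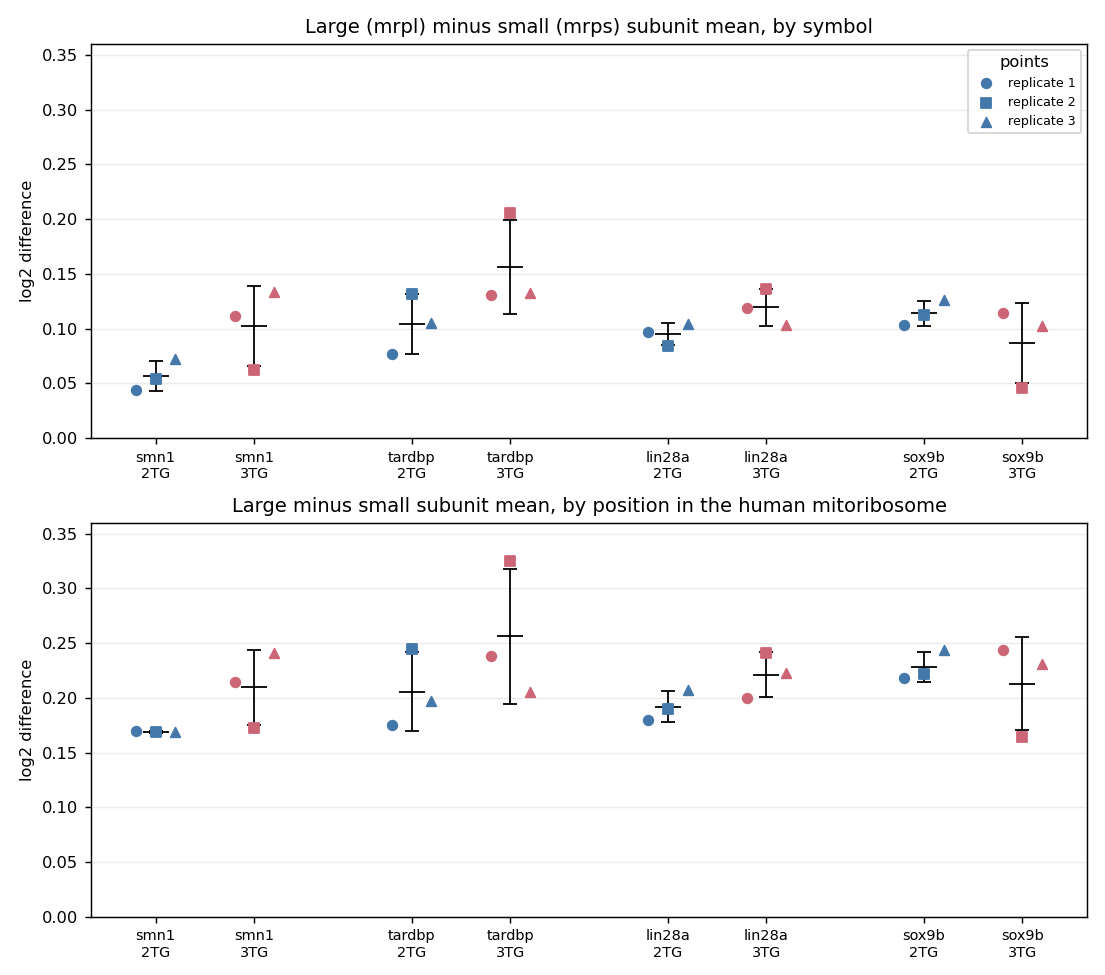
Mean log2(TPM + 1) of large subunit genes minus that of small subunit genes in each library, by symbol (top) and by position in the human mitoribosome (bottom); points are libraries, the long bar is the group mean and the whiskers are 1 SD (n = 3). By symbol the values run from 0.044 to 0.205, and 3TG and 2TG overlap in every line.

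In the smn1 knockdown, most of the 74 genes had lower values in 3TG, by small amounts. The median change was -0.18 on the log2 scale (3TG minus 2TG), beside -0.05 for all 19660 genes tested, and 65 of 74 genes had a change below 0, as did 54.8% of all genes. With each library centred on the median of its expressed genes the median change was -0.16. In limma, with p adjusted over all genes tested, no member passed 0.05 (smallest adjusted p 0.413), nor did any gene of the table. None of the 74 had an unadjusted p under 0.05, where 6.44% of all genes did so as lower and 5.87% as higher.

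The result leaned on a single library. In smn1 3TG replicate 3, 60 of 74 genes lay below all 3 of the 2TG values, against 26 in replicate 1 and 19 in replicate 2; for all genes the shares were 36.8%, 27.8% and 37.6%. Without replicate 3 the median change was -0.06, and -0.03 with centring. In that library 14 cell cycle genes summed to 355 TPM, the lowest of its line, where the other 5 libraries had 452 to 754 TPM, and 15 exocrine pancreas enzymes summed to 22851 TPM, the highest of its line. Their part in the lower values was not tested.

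Groups did not overlap for 7 of the 74 genes in the smn1 line, all lower in 3TG, which is 9.46% of the module beside 11.2% of all genes lower and 7.96% higher. With centring it was 5 genes, all lower, beside 10.3% of all genes. The 7 were mrpl19, mrpl37, mrpl44 and mrpl45 of the large subunit and mrps24, mrps25 and mrps35 of the small one. The small subunit gene mrps25 had 11.99, 10.4 and 11.3 TPM in 2TG and 9.16, 6.84 and 8.39 TPM in 3TG (log2 change -0.43, SE 0.20, limma adjusted p 0.413). Every 3TG library was below every 2TG library, and the change stayed between -0.51 and -0.32 with any library left out. The large subunit gene mrpl19 went from 45.2, 41.1 and 55.4 TPM to 36.8, 36.1 and 31.6 TPM (log2 change -0.42, SE 0.19, adjusted p 0.414). The gap between the lowest 2TG and the highest 3TG library was narrow in this gene.

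An RNase III-like protein of the large subunit is encoded by mrpl44, which had 32.2, 29.8 and 25.6 TPM in 2TG and 19.4, 24.4 and 22.2 TPM in 3TG (log2 change -0.39, SE 0.19, adjusted p 0.430). The mitochondria-specific small subunit gene mrps35 had a mean of 27.4 TPM (SD 2.93, n = 3) against 20.8 TPM (SD 1.52, n = 3; log2 change -0.38, SE 0.19). For mrps14, a small subunit gene with a bacterial homologue, the estimate was -0.48 but the groups overlapped, with 70.0, 62.7 and 46.4 TPM in 2TG and 48.4, 45.4 and 33.3 TPM in 3TG. The highest estimate was that of mrpl36, a large subunit gene with a bacterial homologue, with 9.17, 11.3 and 17.9 TPM in 2TG and 14.1, 18.3 and 14.2 TPM in 3TG (log2 change 0.30, SE 0.27). It was followed by mrps17 at 0.22, mrpl34 at 0.13, mrps31 at 0.10 and mrpl48 at 0.09, and all 5 overlapped.

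The smn1 table mixes 2 number formats: 2TG replicates 1 and 2 and 3TG replicate 1 are written with 6 decimals and the other 3 with 6 significant digits. Within the first set the median change of the 74 genes was -0.08 on the log2 scale, beside 0.02 for all genes, and 47 of 74 were below 0. Within the second it was -0.25, beside -0.12, with 66 of 74 below 0. The estimate for mrpl36 was 0.43 in the first set and -0.14 in the second, so its sign differed. Those for mrps25 were -0.26 and -0.52, for mrpl19 -0.22 and -0.70, and for mrpl44 -0.65 and -0.13.

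As deposited, the tardbp and tardbpl knockdown showed the lowest group mean of the module, together with a shift of the whole table. All 74 genes had a lower mean in 3TG, with a median log2 change of -0.63, while the median over all 19336 genes tested was -0.45 and 83% of them were below 0. Relative to the median gene of each library, the median change of the module was -0.18 and 57 of 74 were below 0, as were 51.2% of all genes. Without 3TG replicate 3, the library with the low TPM sum, the median change was -0.30 beside -0.16 for all genes, and -0.17 with centring. The distance between the module and the median gene was about as large without that library as with it, but it depended on other libraries. The module mean minus the median of all expressed genes was 2.21, 1.89 and 1.87 in 2TG replicates 1, 2 and 3. In 3TG it was 1.98, 1.57 and 1.83. On this scale the lowest group mean was that of smn1 3TG, at 1.63, and the highest was that of tardbp 2TG, at 1.99. The tardbp 3TG mean of 1.79 lay above those of sox9b 3TG (1.75), lin28a 2TG (1.77) and lin28a 3TG (1.78). With centring and any library of the line left out, the median change ran from -0.26 to -0.05. Set against the 2TG mean, the centred median of the 74 genes was 0.06 in 3TG replicate 1. It was -0.43 in replicate 2 and -0.14 in replicate 3. As deposited and without 2TG replicate 2, the only library of its table written with 6 decimals, the median change was -0.64.

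In limma on the tardbp line alone, no member passed 0.05 after adjustment over all genes (smallest adjusted p 0.329), and 2 genes of the table did, both lower (0.0103%). At an unadjusted p under 0.05, 11 of 74 genes were lower (14.9%), beside 12.9% of all genes, and none was higher, beside 0.89%; with centring this was 2 of 74, beside 4.21%. Groups did not overlap for 36 genes, all lower in 3TG, which is 48.6% of the module beside 29.1% of all genes. With centring it was 8 genes, or 10.8% beside 8.53%. In 1 limma fit over all 24 libraries, which pools the spread of the 8 groups, 20 of the 74 genes fell in tardbp 3TG, beside 14.7% of all genes called lower. They were mrpl9, mrpl11, mrpl12, mrpl13, mrpl16, mrpl20, mrpl24, mrpl28, mrpl38 and mrpl39, and mrps2, mrps6, mrps7, mrps9, mrps14, mrps24, mrps25, mrps28, mrps34 and mrps36. None passed in that fit with centring, or without tardbp 3TG replicate 3, where the smallest adjusted p was 0.0541 and 1.58% of all genes were called lower.

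By library, tardbp 3TG replicate 3 had all 74 genes below the 3 values of 2TG, replicate 2 had 58 and replicate 1 had 41; the shares over all genes were 85.5%, 37.9% and 47.9%. With centring the counts were 31, 51 and 17, so that replicate 2 had the most. The centred shares over all genes were 23.7%, 35.9% and 28.5% in the same order. In replicate 1, 16 of the 74 genes lay above all 2TG values with centring, beside 28.8% of all genes. Cell cycle genes were also lower in this line: 14 of them summed to 1015, 695 and 666 TPM in 2TG and to 456, 302 and 236 TPM in 3TG. Their median log2 change was -1.33, beside -0.45 for all genes, and -0.89 with centring. In 3TG replicate 1 their sum was below every 2TG library, and so was the sum of the module, at 2652 TPM. With centring the module median there was 0.06 relative to the 2TG mean. The cell cycle genes were not centred library by library, so the 2 were not compared on that scale. The exocrine pancreas enzymes summed to 198, 2682 and 3551 TPM in 2TG and to 14720, 28146 and 1029 TPM in 3TG. Their part in the lower values of the module was not tested.

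The gene furthest down was mrps6, a small subunit gene whose bacterial homologue pairs with S18 on the platform. It had 51.1, 51.5 and 49.9 TPM in tardbp 2TG and 17.6, 26.9 and 16.6 TPM in 3TG (log2 change -1.31, SE 0.39, limma adjusted p 0.329 in the line alone and 0.0146 in the fit over 24 libraries). The 2TG libraries were close to each other and every 3TG library lay far below them. Without centring, leaving out any library of the line gave -1.52 to -1.19. With centring and all libraries the log2 change was -0.87 (limma adjusted p 0.482). As a share of the TPM of the 74 genes, mrps6 made up 1.53%, 1.68% and 1.59% in 2TG and 0.662%, 1.16% and 1.25% in 3TG, so it was lower than the module as well.

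By p, the next genes were mrps28 of the small subunit and mrpl20, mrpl38 and mrpl12 of the large one. In tardbp 2TG mrps28 had 38.7, 38.0 and 44.4 TPM and in 3TG 22.2, 19.2 and 17.8 TPM (log2 change -0.997, SE 0.38). For mrpl20, with a bacterial homologue, the values were 50.9, 52.0 and 48.7 TPM against 24.8, 35.6 and 18.7 TPM (log2 change -0.96, SE 0.40). The mitochondria-specific mrpl38 had 58.0, 58.8 and 48.2 TPM against 32.7, 32.8 and 20.9 TPM (log2 change -0.93, SE 0.39). In these 3 genes no library of 3TG reached the level of 2TG, as in 29.1% of all genes of this table. With centring, in the limma fit over 24 libraries, the log2 changes were -0.57, -0.54 and -0.51. Their adjusted p was 0.310, 0.308 and 0.263, for mrps28, mrpl20 and mrpl38 in that order.

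The stalk gene mrpl12 had 58.7, 89.3 and 77.9 TPM in tardbp 2TG and 46.0, 43.8 and 29.3 TPM in 3TG (log2 change -0.91, SE 0.40). Here 2TG replicate 1 was nearer to 3TG than to the other 2TG libraries. Outside the mitoribosome, mrps36 had 114, 134 and 132 TPM in 2TG and 102, 90.2 and 46.7 TPM in 3TG, again without overlap but with replicate 3 far below the rest. With centring, in the fit over 24 libraries, the log2 change was -0.49 for mrpl12 and -0.31 for mrps36.

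Relative to the mean of the 74 genes in each library, 7 genes were higher in all tardbp 3TG libraries than in all 2TG ones (9.46%, beside 11.5% of all genes), and 2 were lower (2.7%, beside 4.11%). The 7 were mrps22, mrps35, mrps5 and mrps15 of the small subunit and mrpl4, mrpl36 and mrpl22 of the large one, by 0.12 to 0.46 on the log2 scale. The 2 lower ones were mrps6, by -0.69, and mrpl20, by -0.34. On this scale, which takes out a shift common to the module, the other 65 genes had overlapping groups.

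In the lin28a activation line the module was near 0, with a median log2 change of -0.03 beside -0.05 for all 19580 genes tested, and 45 of 74 genes below 0. No member passed in limma (smallest adjusted p 0.980), none had an unadjusted p under 0.05 (0.7% of all genes did as higher and 1.08% as lower), and no gene of the table passed. Groups did not overlap for 2 genes that were higher, mrpl11 and mrps34 (2.7%, beside 2.5% of all genes), and for 1 that was lower, mrps18c (1.35%, beside 4.06%). With centring 3 were higher, beside 3.81% of all genes, and 2 lower, beside 3.77%. The libraries of 3TG pointed different ways. In replicate 3, 44 of 74 genes lay above all 2TG values, beside 29% of all genes. In replicate 2, 37 of 74 lay below them, beside 40.6% of all genes. In that replicate 2 the cell cycle genes summed to 308 TPM, the lowest of the line, and the exocrine pancreas enzymes to 671 TPM, where the other 5 libraries had 4171 to 21598 TPM. Their part was not tested.

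The product of mrpl11 belongs to the site where translation factors with GTPase activity dock. It had 36.7, 34.2 and 42.7 TPM in lin28a 2TG and 45.4, 48.1 and 44.4 TPM in 3TG (log2 change 0.28, SE 0.19, limma adjusted p 0.980). The mitochondria-specific small subunit gene mrps34 had 46.1, 48.9 and 31.3 TPM against 51.0, 48.9 and 54.4 TPM (log2 change 0.31, SE 0.22), where 1 library of each group was at 48.9 TPM. For mrps18c the values were 37.4, 46.1 and 49.7 TPM against 33.4, 28.5 and 37.1 TPM (log2 change -0.41, SE 0.21, adjusted p 0.980). All 3 separations were narrow.

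The widest estimates in this line came from overlapping groups. The peptidyl-tRNA hydrolase gene mrpl58 had 8.13, 7.36 and 1.61 TPM in 2TG and 8.36, 10.8 and 7.92 TPM in 3TG (log2 change 0.77, SE 0.46); 2TG replicate 3 was far below the other 5 libraries, and leaving out single libraries gave 0.19 to 1.09. In the same library mrpl2, a protein near the peptidyl transferase centre, was also low, with 38.4, 32.7 and 18.8 TPM in 2TG against 33.4, 40.5 and 51.7 TPM in 3TG (log2 change 0.50, SE 0.30). Among the 5 lower genes of smallest p, mrpl41 was at -0.38, mrps33 at -0.65, mrpl46 at -0.29 and mrpl47 at -0.20, and these 4 had overlapping groups.

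Of the 3 genes mrps18a, mrps18b and mrps18c, only mrps18c differed without overlap in the lin28a line. Its human counterpart is placed in the small subunit like that of mrps18b, whereas that of mrps18a is in the large one. The group means of mrps18b were among the 5 steadiest of the 74 genes.

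In the sox9b activation line the module also lay near 0. The median log2 change was -0.03, where all 19619 genes tested had a median of 0.07; 46 of 74 genes were below 0 against 33.1% of all genes. With centring the median was -0.11 and 67 of 74 were below 0, against 54.2% of all genes. Leaving out single libraries moved this centred median between -0.21 and 0.06, so its sign was not stable. Relative to the median gene, the module mean stood at 2.24 for 2TG replicate 3. Other libraries of the line lay between 1.65 and 1.80. No member passed in limma (smallest adjusted p 1.00) or had an unadjusted p under 0.05 (0.826% of all genes did as higher and 0.392% as lower), no gene of the table passed, and no gene of the 74 had groups without overlap (3.6% of all genes did as higher and 1.15% as lower). With centring 1 gene, mrpl42, had an unadjusted p under 0.05, beside 0.759% of all genes, and groups without overlap, beside 2.6%.

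The mitochondria-specific large subunit gene mrpl42 had 43.5, 49.6 and 46.5 TPM in sox9b 2TG and 37.5, 32.5 and 43.5 TPM in 3TG (log2 change -0.30, SE 0.14, limma adjusted p 1.00), where 3TG replicate 3 just met the lowest 2TG library. By p, the next genes with lower values were mrps6 at -0.22, mrpl14 at -0.28, mrpl33 at -0.18 and mrpl24 at -0.15. Those with higher values of smallest p were mrps16 at 0.28, mrpl21 at 0.26, mrps33 at 0.20, mrps22 at 0.17 and mrps30 at 0.17. For mrps16, 2TG had 23.8, 15.3 and 17.9 TPM and 3TG 16.4, 28.7 and 25.5 TPM, ranges that overlapped.

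**Figure D4:**
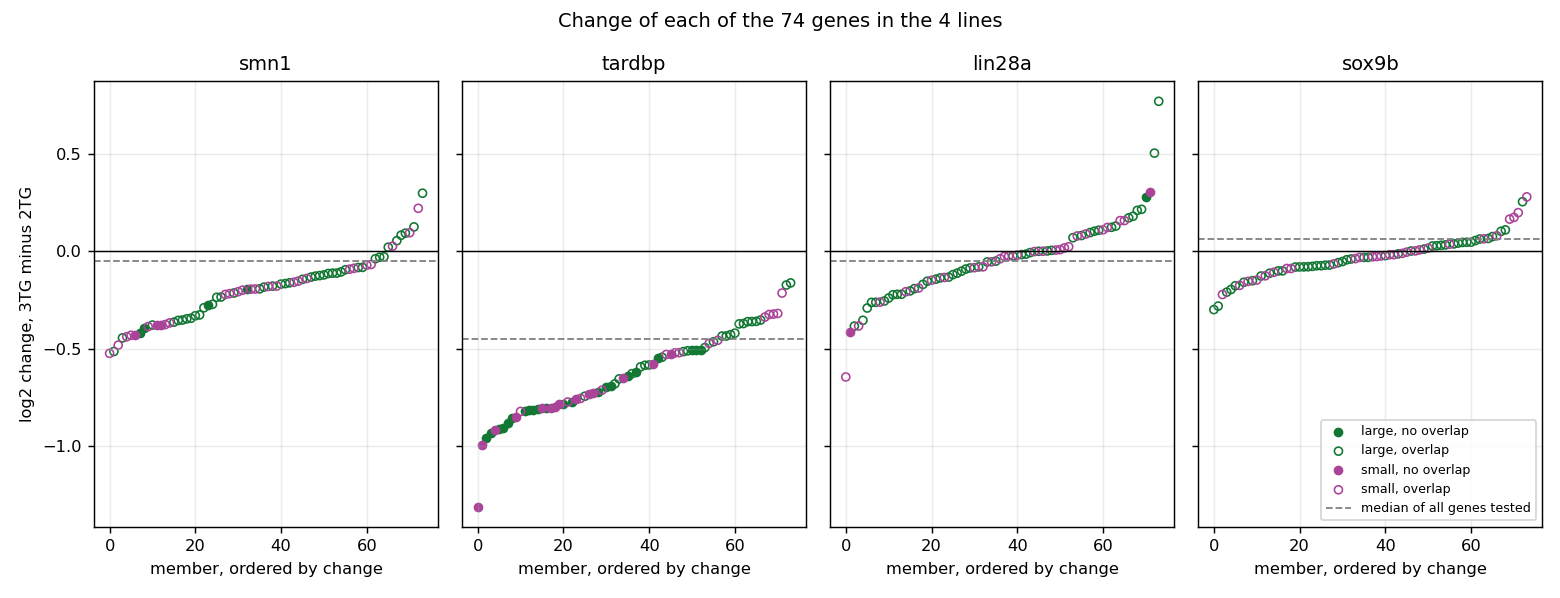
Log2 change (3TG minus 2TG) of each of the 74 genes in the 4 lines, ordered within a line; filled points mark genes whose 3TG and 2TG libraries do not overlap, green is large and purple small subunit, and the dashed line is the median of all genes tested. All 74 points are below 0 in tardbp, where the dashed line is at -0.45, and the points of lin28a and sox9b lie on both sides of 0.

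Across the 4 lines, 21 of the 74 genes had a lower mean log2 value in 3TG every time, beside 9.13% of the 18656 genes tested in all 4 lines, and none a higher one, beside 2.22%. These counts use values as deposited. In tardbp all 74 genes were lower, as were 83% of all genes tested there. That line therefore did not narrow the count of 21, and by itself it settled that none was higher. Groups overlapped in all 4 lines for 33 genes, or 44.6% beside 50.7%, and 5 genes had groups without overlap in more than 1 line, or 6.76% beside 10.3%. The difference of the change between lines was tested in 1 limma fit over 24 libraries, for the 6 pairs of lines. No member passed 0.05 in any pair, as deposited, with centring, or without tardbp 3TG replicate 3; the smallest adjusted p was 0.127, for mrpl11 between tardbp and lin28a. At an unadjusted p under 0.05, 20 members differed between tardbp and lin28a (19.2% of all genes did), 19 between tardbp and sox9b (20.8%) and 8 between smn1 and tardbp (10.6%). In the other 3 pairs it was 0 members, where 7.41% of all genes differed for smn1 and lin28a, 3.37% for smn1 and sox9b and 0.991% for lin28a and sox9b.

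Other genes of mitochondrial gene expression were described in the same way in the knockdown lines. Subunits that carry other symbols (dap3, ptcd3, chchd1, aurkaip1 and gadd45gip1) had a median log2 change of -0.24 in smn1 and -0.64 in tardbp, with all 5 below 0 in both; with centring the medians were -0.21 and -0.20. In tardbp, dap3, which encodes a GTP-binding small subunit protein, had 37.7, 34.2 and 29.5 TPM in 2TG and 26.7, 25.3 and 11.3 TPM in 3TG. In smn1, chchd1 had 17.9, 16.2 and 18.8 TPM and 12.3, 15.2 and 8.43 TPM (limma adjusted p 0.403). Neither gene's groups overlapped. Without 3TG replicate 3 of the line, the medians of these 5 subunit genes were -0.07 in smn1 and -0.36 in tardbp.

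Assembly factors, which modify the mitochondrial ribosomal RNA and help subunits mature, had a median of -0.14 in smn1 (17 of 25 below 0) and -0.50 in tardbp (21 of 25), or -0.11 and -0.05 with centring. Without 3TG replicate 3 of the line, the medians were -0.16 in smn1 and -0.23 in tardbp. No assembly factor passed in limma. The unadjusted p was under 0.05 for 3 of 25 in smn1, all lower, namely mettl15, rbfa and mrm3b, beside 6.44% of all genes; with centring it was 2 of 25. The ribosome binding factor rbfa had 8.28, 10.2 and 7.30 TPM in smn1 2TG and 5.14, 6.02 and 5.62 TPM in 3TG.

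Translation factors had medians of -0.14 in smn1 and -0.72 in tardbp, with 14 and 15 of 17 below 0, and 4 of 17 had an unadjusted p under 0.05 as lower in tardbp, beside 12.9% of all genes, which became 0 of 17 with centring. With centring the medians were -0.11 and -0.28. As deposited but without 3TG replicate 3 of the line, they were -0.0006 in smn1 and -0.30 in tardbp. The elongation factor gene gfm1 had 20.8, 19.8 and 20.2 TPM in tardbp 2TG and 11.4, 11.5 and 9.001 TPM in 3TG (log2 change -0.87, limma adjusted p 0.351). Mitochondrial aminoacyl-tRNA synthetases, which charge tRNAs in the organelle, had medians of -0.19 and -0.57, with 12 of 14 and 14 of 14 below 0, or -0.17 and -0.13 with centring. Genes of mitochondrial DNA maintenance and transcription had -0.14 and -0.47, or -0.11 and -0.03 with centring. None of these genes passed after adjustment in either line. Without 3TG replicate 3 of the line, the synthetase medians were -0.18 in smn1 and -0.39 in tardbp. Those of DNA maintenance and transcription were -0.14 and -0.20, and those of all genes tested -0.04 and -0.16.

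The products of mitochondrial translation and the cytosolic ribosome were set beside the module. The 13 proteins encoded by mitochondrial DNA had a median log2 change of -0.21 (smn1), -0.39 (tardbp), -0.30 (lin28a) and -0.01 (sox9b). In lin28a all 13 were below 0, while the 74 mitoribosomal genes had a median of -0.03 there. The 86 nuclear respiratory chain genes had -0.06, -0.45, -0.11 and -0.05 in the same order, in tardbp the same as all genes to 2 decimals. The 77 cytosolic ribosomal protein genes had 0.08, -0.26, 0.14 and -0.04; relative to the median gene they were at 0.18 in tardbp, where the mitoribosomal genes were at -0.18. Without 3TG replicate 3 of the line, the 13 mitochondrially encoded genes were at -0.04 in smn1 and 0.01 in tardbp. The nuclear respiratory chain genes were then at 0.03 and -0.10, and the cytosolic ribosomal protein genes at -0.02 and 0.15. No member of these lists passed after adjustment in limma in any line, and whether a list differs from another was not tested.

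**Figure D5:**
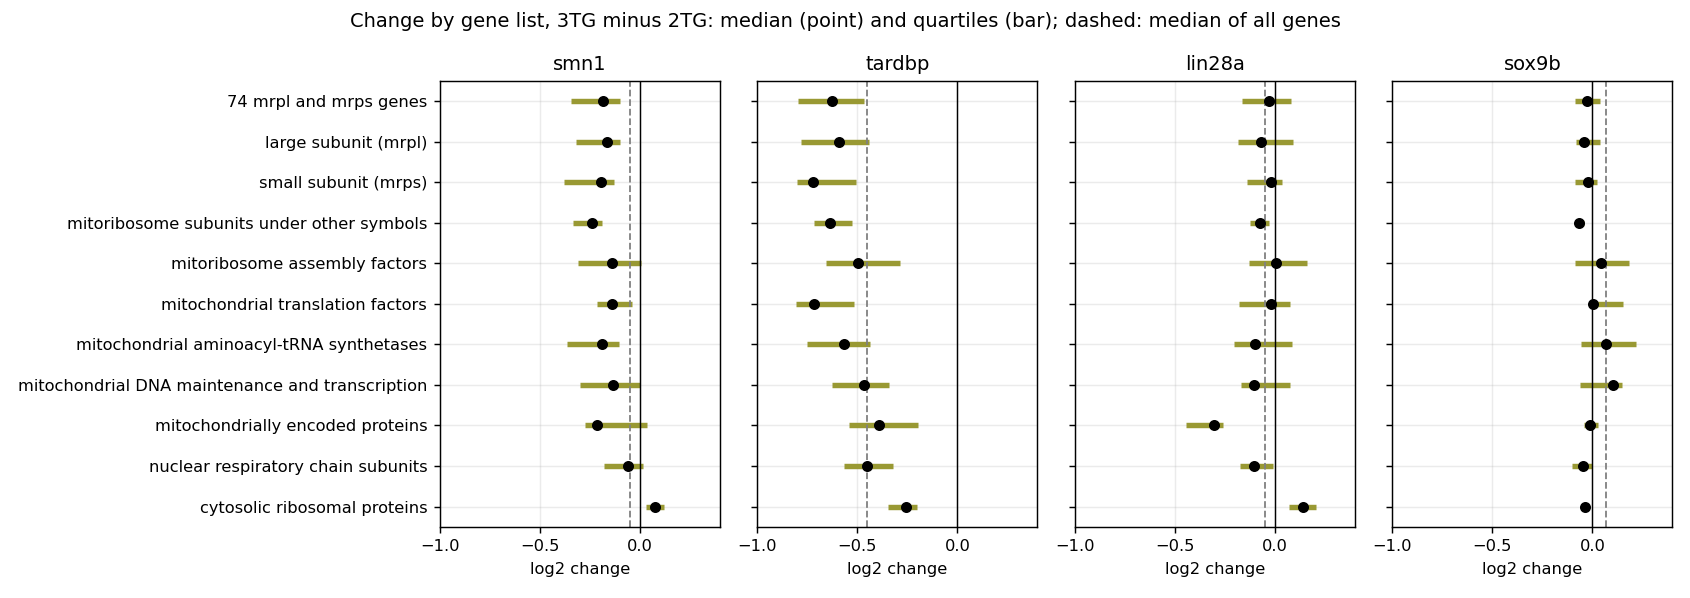
Median (point) and quartiles (bar) of the log2 change, 3TG minus 2TG, for the 74 genes, their subunits and 8 other gene lists in the 4 lines; the dashed line is the median of all genes tested. In tardbp the mitoribosomal genes (-0.63) and translation factors (-0.72) lie left of the dashed line at -0.45 and cytosolic ribosomal proteins (-0.26) to the right of it.

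In 4 of the 74 genes the level relative to the module differed between the number formats of the libraries. Over all lines 10 libraries are written with 6 decimals (3 of smn1, 1 of tardbp and all 6 of sox9b) and 14 with 6 significant digits. Relative to the module mean, mrpl12, mrps14 and mrps36 were higher in all 10 than in all 14 (4.05% of the module, beside 0.73% of all genes), and mrpl32, whose product is trimmed by a mitochondrial protease before assembly, was lower (1.35%, beside 0.0664%). This comparison was chosen after the values were seen.

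As a share of the TPM of the 74 genes, mrpl12 was at 2.59% to 3.48% (median 3.04%) in the 10 libraries and at 1.73% to 2.50% (median 2.13%) in the 14. For mrps36 the shares were 4.32% to 5.22% and 3.39% to 4.20%, and for mrps14 1.81% to 2.44% and 1.31% to 1.80%. For mrpl32 they were 0.785% to 1.03% and 1.06% to 1.47%. Within the smn1 table, which holds 3 libraries of each format, the log2 difference between formats relative to the module was 0.50 for mrpl12, 0.45 for mrps14, 0.36 for mrps36 and -0.25 for mrpl32. In the lin28a and sox9b tables every library has the same format, so 3TG and 2TG share it there, but levels of these 4 genes cannot be told apart from format when lines are set side by side. In the smn1 and tardbp tables more 2TG than 3TG libraries have 6 decimals. Changes of these 4 genes in the knockdown lines may therefore also carry a format difference. For mrps14 in smn1 the log2 change of -0.48 became -0.45 with 6-decimal libraries only and -0.25 with the others only. The share of format in the tardbp changes was not tested.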

How the data were processed

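Gene-level TPM of 24 libraries were deposited by the authors in 1 table per line. Per the submitters' processing notes, Trimmomatic 0.39, STAR 2.7.10b and Salmon 1.10.1 were used, with no role or order given, and the notes list GRCz11 and danRer11 as builds. No coordinates or sequences were used here. The smn1 table has 13 unnamed columns, which hold no sample and were not used.

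Each line was fitted alone as log2(TPM + 1), unscaled, with limma 3.58.1 (R 4.3.3; variance trend, two-sided), keeping genes that reached 1 TPM in 3 or more of its 6 libraries; p was adjusted by Benjamini-Hochberg across every gene of the fit, and the threshold was 0.05. Fold changes on this scale understate those of low genes. An exact test of 3 against 3 libraries cannot go below 0.1, so overlap of groups is given as a count. Centring subtracts the median of expressed genes from each library. Subunit scores were described without a test.

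Members named in a line are the 5 of smallest p in each direction; others are named for the highest and lowest TPM, the largest and smallest ratio of group means, or a known role, and of other lists examples come from the 3 of smallest p. The members, the lists and these rules were chosen with earlier results of these data known. All 74 symbols matched the gene name table, 73 by the same symbol. The fit was run on simulated data with independent noise in each gene. Those data held no shift shared by a library, so they do not cover a shift such as that of tardbp 3TG replicate 3.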

Additional observations from a re-analysis of the deposited data

Results flagged for a closer look

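A pair of genes had groups without overlap in opposite directions in 2 lines. The same count over all genes was not made. Of all genes, 29.1% were lower without overlap in tardbp and 2.5% were higher without overlap in lin28a. The large subunit gene mrpl11 was higher in lin28a 3TG (log2 change 0.2777) and lower in tardbp 3TG (-0.8156). The small subunit gene mrps34 was higher in lin28a 3TG (0.3065), where the separation was narrow, and lower in tardbp 3TG (-0.8508). The difference between the lines was tested in the limma fit over 24 libraries: it was -1.09 (SE 0.28, adjusted p 0.127) for mrpl11 and -1.16 (SE 0.31, adjusted p 0.134) for mrps34, so neither passed. With centring the differences were -0.72 (adjusted p 0.342) and -0.78 (adjusted p 0.346). In tardbp 2TG mrpl11 had 60.5, 69.9 and 51.1 TPM and in 3TG 34.4, 39.2 and 28.2 TPM; mrps34 had 69.7, 60.7 and 56.2 TPM and 39.5, 37.0 and 26.6 TPM.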

How the results depend on the processing

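The count of members called stayed at 0 under all alternatives except 1 fit over 24 libraries, where it was 20 in tardbp (0 with centring, or without tardbp 3TG replicate 3). The tardbp median change of -0.63 was -0.18 with centring, -0.23 with rescaled totals and -0.17 with centring and without 3TG replicate 3. With centring and any library of the line left out, it ran from -0.26 to -0.05. Counts of genes whose groups do not overlap were the least stable. With centring they were 8 in tardbp, 5 in lin28a and 1 in sox9b, and with rescaled totals 17 in tardbp and 2 in sox9b. Each library was also left out in turn, which leaves 2 libraries against 3 and makes separation easier. The counts then ran from 11 to 23 in smn1, 36 to 58 in tardbp, 4 to 16 in lin28a and 2 to 10 in sox9b. Shares over all genes were not counted with rescaled totals or left-out libraries. These counts therefore cannot be set against other genes. The change of the large minus small difference, taken over subunit medians, was -0.0912 in smn1 and 0.0586 in lin28a. With a library left out, the median change ran from -0.29 to -0.06 in smn1 (nearest to 0 without 3TG replicate 3), from -0.80 to -0.30 in tardbp (nearest to 0 without 3TG replicate 3), from -0.17 to 0.08 in lin28a and from -0.11 to 0.05 in sox9b. The cause was not tested. In all, 183 of the recomputed values counted as unmoved and 28 as moved. A median or subunit difference counted as unmoved if it shifted by less than the SD between libraries within groups. By this rule the tardbp median of -0.30 counted as unmoved. Counts of members called that stayed at 0 are also among the unmoved values. So are values that could not move. Centring cancels in the subunit difference, and another pseudocount cannot alter which groups overlap. The tally is therefore not a measure of how stable the results are. The median changes in lin28a and sox9b and the subunit difference in smn1 changed sign in some settings. Adding MRPL49 and MRPS12, chosen after seeing the data, as were the number formats and centring with a library left out, gave medians of -0.19, -0.63, -0.03 and -0.03.

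With the replicate number as a block, alone or with centring, 0 members were called in every line. The numbers were not taken to pair samples: correlations of same-numbered deviations ran from -0.34 to 0.38, and not every pair of a line was over 0.1. TPM hold no depth, so counting error is unknown, and the low genes mrpl22 and mrps15 limit what can be read from them.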
